A study of Mus musculus with 6 samples.

Results

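The 44 genes described here are the contractile, calcium-handling and regulatory genes of skeletal muscle, followed in libraries that are labelled as primary chondrocytes, the cells of cartilage. They were taken by gene symbol from a deposited table of 47480 rows, and all 44 had a row. The list holds 5 myogenic factors, 6 myosin heavy chains, 4 myosin light chains, 8 genes of actin, the troponins and nebulin, 10 of titin, the Z disc and the filament linkers, 7 of calcium handling and excitation, and 4 of energy supply.

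The 6 libraries are 3 of A2ARKO cells, from mice labelled as global knockouts of the adenosine receptor that Adora2a encodes, and 3 of WT cells. Both genotypes are labelled as neonatal, as C57BL/6 in background and as housed and fed alike, and no other allele or agent is named. Each library is RNA from the trypsinized primary chondrocytes of a whole litter, so each replicate pools several pups, and a p-value reflects how far litters of a genotype differ. Values are FPKM, fragment counts scaled to gene length and library size, which can be compared between genes. Values of 3 libraries are given in the order of replicates 1, 2 and 3. Adora2a read 0.41, 0.54 and 0.66 FPKM in A2ARKO libraries and 9.36, 7.31 and 3.46 FPKM in WT libraries, a log2 fold change of -2.25 (standard error 0.31, limma adjusted p = 0.0203), and an exact permutation test, two-sided, gave p = 0.1, below which a design of 3 and 3 cannot go. Every A2ARKO value lay below every WT value, but the limma call was lost without WT replicate 2 (adjusted p = 0.0582) and without any 1 of the A2ARKO replicates (0.0824 to 0.0955). Step sizes among the lowest values put the depth at 41.6 to 58.3 M reads per library (M, mega). The cartilage collagen gene Col2a1 read 1363, 2939 and 3887 FPKM in A2ARKO libraries and 18662, 808 and 185 FPKM in WT libraries, so every library held cartilage transcripts, at levels that differed widely among the WT litters.

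Skeletal muscle cells form when precursors that carry Pax7 switch on the myogenic factors Myf5 and Myod1, then Myog and Myf6, leave the cell cycle and fuse into multinucleate fibres. The fibres fill with sarcomeres, in which myosin thick filaments pull on actin thin filaments under the control of troponin and calcium. Before and around birth, mouse fibres carry embryonic and perinatal myosin heavy chains (Myh3 and Myh8), which later give way to the adult fast (Myh4, Myh1, Myh2) and slow (Myh7) forms.

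WT replicate 2 held the highest value of all 44 genes. Their summed FPKM was 84.6, 32.8 and 45.1 in A2ARKO libraries and 42.7, 2847 and 55.5 in WT libraries, which is 1.12% of all FPKM in WT replicate 2 and between 0.0121% and 0.0315% in the other 5 libraries. The median gene of the list stood at 34.4 FPKM in WT replicate 2 and between 0.285 and 0.96 FPKM elsewhere. In WT replicate 2, 39 of the 44 genes reached 1 FPKM, and each of these 39 stood at 5 times the next library or more. That ratio was smallest for Eno3 at 5.02 and largest for Myh3 at 85.2. The 39 genes were taken by their level in that same library, and the share of all genes at such a ratio was not counted. The 5 genes under 1 FPKM in WT replicate 2 were Pax7, Myf5, Myh2, Myl2 and Mybpc2. In bulk RNA, fewer muscle cells and less RNA per muscle cell cannot be told apart.

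**Figure D1:**
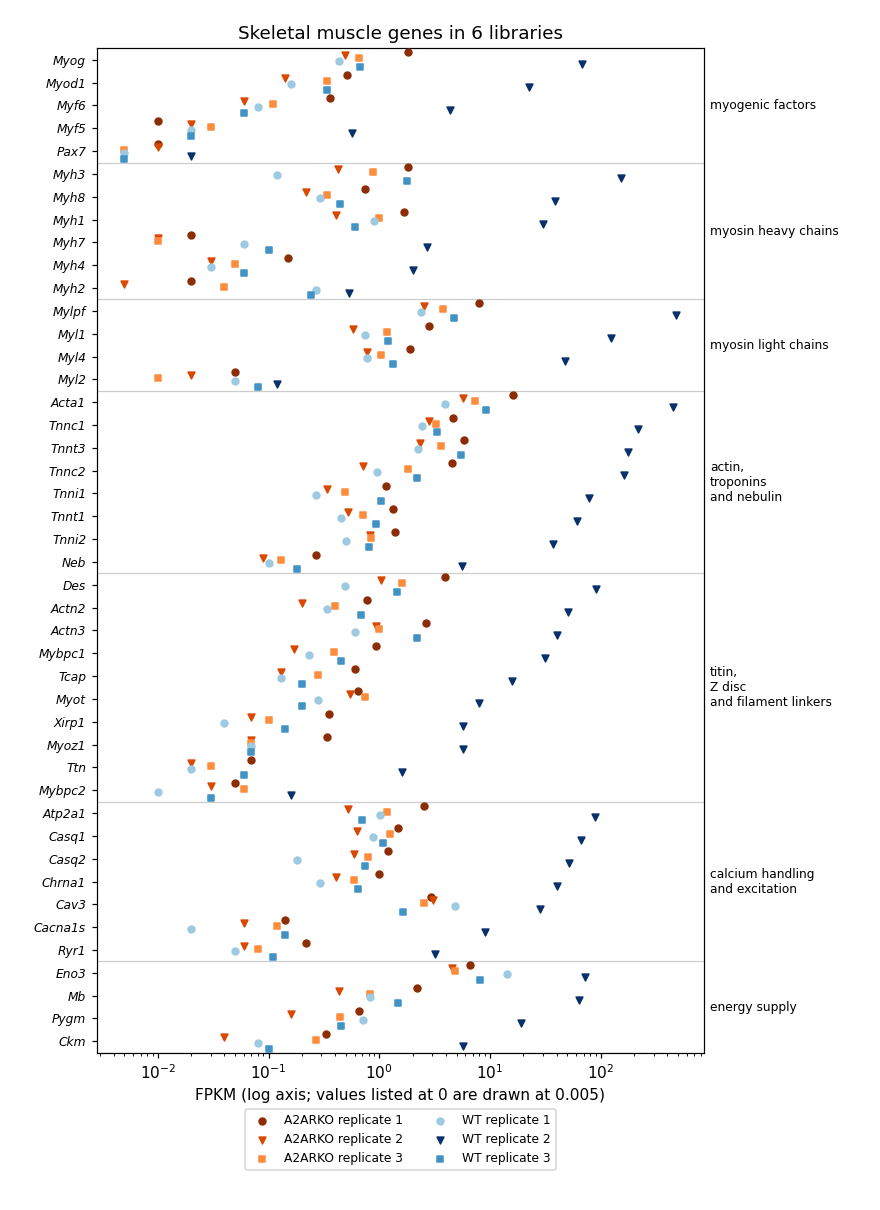
FPKM of the 44 genes on a log axis, 1 row per gene grouped by role, with 1 point per library. The triangles of WT replicate 2 lie to the right of all other points in every row, and A2ARKO replicate 1 is next in most rows.

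Among the myogenic factors, Myod1, Myog and Myf6 stood far above the other libraries in WT replicate 2, while Myf5 stayed below 1 FPKM and Pax7 near 0. Myog, which drives terminal differentiation (GRCm38 chromosome 1, 134289989 to 134292548, plus strand), read 1.82, 0.49 and 0.66 FPKM in A2ARKO libraries and 0.43, 68.1 and 0.67 FPKM in WT libraries. Myod1, the determination factor, read 0.51, 0.14 and 0.34 FPKM in A2ARKO and 0.16, 22.6 and 0.34 FPKM in WT. For both genes A2ARKO and WT values overlapped, and WT replicates 1 and 3 lay among or close to the A2ARKO values. Myf6, expressed late in fibres, read 0.36, 0.06 and 0.11 FPKM in A2ARKO and 0.08, 4.31 and 0.06 FPKM in WT. Myf5 read 0.01, 0.02 and 0.03 FPKM in A2ARKO and 0.02, 0.57 and 0.02 FPKM in WT. Pax7, which marks satellite cells and their precursors, read 0.01, 0.01 and 0 FPKM in A2ARKO and 0, 0.02 and 0 FPKM in WT, which corresponds to at most 5.9 estimated reads in any library.

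The genes of cell fusion that are not on the list, Mymk and Mymx, whose products fuse myoblasts and which the table carries under older symbols, were high in the same library. Mymk read 1.32, 0.35 and 0.58 FPKM in A2ARKO and 0.6, 75 and 0.78 FPKM in WT. Mymx read 0.25, 0.07 and 0.18 FPKM in A2ARKO and 0, 15.4 and 0.19 FPKM in WT. Both were again highest in WT replicate 2.

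Myogenic factors bind E-boxes, and promoters of genes of the list were searched for an E-box and other promoter motifs. RefSeq promoters on GRCm38.p6, 250 bases before to 50 bases after the start, were matched for 34 of the 44 genes, taking the first entry of a gene. The searched motifs were the E-box CAGCTG, the TATA motif TATAAA, the M-CAT core CATTCC, and the MEF2 and CArG boxes by their usual definitions, all on both strands; TATAAA can lie inside a MEF2 box. CAGCTG was found in 16 of 34 promoters (47.1%), against 16.1% of all 27025 promoters of that length. TATAAA stood in 26.5% of the 34 and 14.2% of all, CATTCC in 32.4% and 14.6%, the MEF2 box in 14.7% and 3.3%, and the CArG box in 5.9% and 1.6%. These are matches of letters, not sites that were measured. The promoters below belong to the most abundant thin-filament gene, the most abundant light chain, the embryonic myosin and the enolase gene that departs from the common pattern; capitals mark the motifs, read 5′ to 3′ on the gene's strand.
Acta1 (chr8:123894726-123895025, minus strand): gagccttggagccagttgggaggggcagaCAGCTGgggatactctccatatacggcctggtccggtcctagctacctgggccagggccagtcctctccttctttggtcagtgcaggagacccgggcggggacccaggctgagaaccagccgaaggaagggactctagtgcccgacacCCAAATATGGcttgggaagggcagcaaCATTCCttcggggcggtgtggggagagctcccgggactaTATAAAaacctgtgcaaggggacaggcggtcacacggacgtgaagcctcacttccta
Mylpf (chr7:127211358-127211657, plus strand): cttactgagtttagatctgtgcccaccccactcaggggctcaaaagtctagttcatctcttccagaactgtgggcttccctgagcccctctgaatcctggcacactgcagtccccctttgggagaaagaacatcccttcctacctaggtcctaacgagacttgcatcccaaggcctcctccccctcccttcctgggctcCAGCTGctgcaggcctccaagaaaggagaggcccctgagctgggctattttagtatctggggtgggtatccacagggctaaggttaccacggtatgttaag
Myh3 (chr11:67078050-67078349, plus strand): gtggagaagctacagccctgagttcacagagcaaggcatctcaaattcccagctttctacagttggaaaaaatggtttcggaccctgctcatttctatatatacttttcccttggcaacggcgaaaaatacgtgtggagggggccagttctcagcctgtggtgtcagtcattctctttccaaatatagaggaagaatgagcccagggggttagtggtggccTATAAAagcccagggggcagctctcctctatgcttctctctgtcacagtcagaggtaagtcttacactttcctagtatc
Eno3 (chr11:70656926-70657225, plus strand): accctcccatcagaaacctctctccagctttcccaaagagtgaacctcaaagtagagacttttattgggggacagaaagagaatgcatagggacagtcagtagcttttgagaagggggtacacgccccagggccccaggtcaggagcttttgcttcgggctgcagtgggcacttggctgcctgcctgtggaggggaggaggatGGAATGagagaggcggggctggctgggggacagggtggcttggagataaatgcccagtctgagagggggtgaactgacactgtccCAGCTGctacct
In this window Acta1 holds CAGCTG, a CArG box, CATTCC and TATAAA, Mylpf holds CAGCTG alone, Myh3 holds TATAAA alone, and Eno3 holds CAGCTG and a reverse CATTCC.

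The myosin heavy chains in WT replicate 2 were mainly the embryonic and perinatal forms. Myh3 (chromosome 11, 67078300 to 67102291, plus strand) read 1.80, 0.42 and 0.88 FPKM in A2ARKO libraries and 0.12, 153 and 1.78 FPKM in WT libraries. Myh8 read 0.74, 0.22 and 0.34 FPKM in A2ARKO and 0.29, 39.0 and 0.44 FPKM in WT. The adult fast gene Myh1 read 1.67, 0.41 and 0.99 FPKM in A2ARKO and 0.89, 29.8 and 0.61 FPKM in WT. Each of these 3 genes was highest in WT replicate 2, and the A2ARKO values overlapped those of the other WT litters. Within WT replicate 2, Myh3 made up 67.5% of the summed FPKM of the 6 heavy chains, Myh8 17.1% and Myh1 13.1%. Myh3 made up 40.9%, 38.5% and 38.1% in A2ARKO libraries, and 7.23% and 55.1% in WT replicates 1 and 3. In WT replicate 1 the leading heavy chain was Myh1, at 53.6%, from a summed FPKM of 1.66. The remaining heavy chains Myh4 and Myh7 were below 3 FPKM in all libraries.

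**Figure D2:**
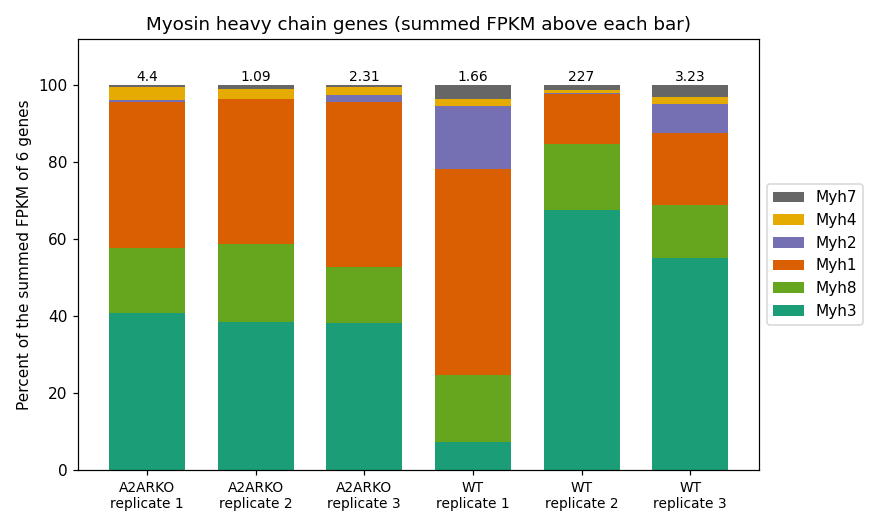
Share of each gene in the summed FPKM of 6 myosin heavy chain genes, with 1 stacked bar per library and the summed FPKM printed above it. Myh3 takes 67.5% in WT replicate 2, 38.1% to 40.9% in the A2ARKO libraries and 7.23% in WT replicate 1.

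Myh2, an adult fast oxidative heavy chain (chromosome 11, 67171027 to 67197517, plus strand), did not follow the others. It read 0.02, 0 and 0.04 FPKM in A2ARKO libraries and 0.27, 0.53 and 0.24 FPKM in WT libraries, or about 7.4, 0 and 15.1 estimated reads against 80.2, 189 and 90.1. The groups do not overlap, and the value of WT replicate 2 was 1.96 times that of the next library. WT replicates 1 and 3 stood at 50.9% and 45.3% of WT replicate 2, where the median gene of the list stood at 1.23% and 1.71%. Myh7, the slow heavy chain, read 0.02, 0.01 and 0.01 FPKM in A2ARKO and 0.06, 2.68 and 0.10 FPKM in WT, again without overlap. Of all 26442 genes above 0 in a library, 10.2% lay lower in A2ARKO without overlap, so such a separation is common in these data. Heavy chain genes are near-identical in parts: 24.6% of the 50-base windows of Myh2 transcripts and 30.5% of those of Myh1 occur in another gene's transcript, against 4.8% for Myh3. Reads may therefore be split or dropped between Myh1, Myh2, Myh4 and Myh8, and Myh7 shares windows with Myh6.

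Myosin light chains reached the highest level of the list. Mylpf, the fast regulatory light chain (chromosome 7, 127208890 to 127214298, plus strand), read 7.98, 2.54 and 3.75 FPKM in A2ARKO libraries and 2.40, 482 and 4.72 FPKM in WT libraries. Myl1, the fast essential light chain, read 2.81, 0.58 and 1.18 FPKM in A2ARKO and 0.75, 123 and 1.19 FPKM in WT. Myl4, an essential light chain of embryonic and atrial muscle, read 1.89, 0.78 and 1.04 FPKM in A2ARKO and 0.78, 47.2 and 1.33 FPKM in WT. All 3 had WT replicate 2 first and A2ARKO replicate 1 next. Myl2, the regulatory light chain of slow and ventricular muscle, stayed between 0.01 and 0.12 FPKM in all 6 libraries.

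Thin-filament genes made up the largest summed level of the roles in WT replicate 2, at 1177 FPKM. Acta1, skeletal alpha-actin (chromosome 8, 123891769 to 123894751, minus strand), read 16.2, 5.69 and 7.25 FPKM in A2ARKO libraries and 3.91, 444 and 9.11 FPKM in WT libraries. Tnnt3, the fast troponin T, read 5.79, 2.35 and 3.58 FPKM in A2ARKO and 2.26, 175 and 5.52 FPKM in WT. Tnnc1, the slow and cardiac troponin C, read 4.62, 2.84 and 3.26 FPKM in A2ARKO and 2.45, 215 and 3.32 FPKM in WT. With WT replicate 2 set aside, the 5 remaining values of each gene overlapped between the genotypes. Tnni1, the slow troponin I, read 1.15, 0.34 and 0.49 FPKM in A2ARKO and 0.27, 78.1 and 1.04 FPKM in WT. Tnnc2, the fast troponin C, read 4.49, 0.71 and 1.80 FPKM in A2ARKO and 0.96, 161 and 2.19 FPKM in WT. Of the exon bases of Tnnc2, 74.0% also lie in exons of Ube2c on the other strand, and since the strand setting is not given, its reads cannot be told from those of Ube2c. Other genes also overlap 31.9% of the exon bases of Mb and 21.9% of those of Atp2a1. Tnnt1, Tnni2 and Neb, for slow troponin T, fast troponin I and nebulin, read 60.6, 37.3 and 5.64 FPKM in WT replicate 2 and at most 1.39 FPKM in any other library.

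Slow and fast troponins were mixed in WT replicate 2. The slow Tnni1 made up 67.7% of the summed troponin I there, against 45.3%, 29.3% and 36.8% in A2ARKO libraries and 35.1% and 56.2% in WT replicates 1 and 3. The slow Tnnt1 made up 25.7% of summed troponin T in WT replicate 2 and between 14.6% and 18.6% in the other 5 libraries. Troponin C did not follow: the slow Tnnc1 made up 50.7%, 80% and 64.4% of its sum in A2ARKO libraries and 71.8%, 57.2% and 60.3% in WT libraries, with Tnnc2 subject to the overlap with Ube2c. Cardiac alpha-actin Actc1, which embryonic skeletal muscle also uses and which is not on the list, read 2.15, 0.66 and 1.20 FPKM in A2ARKO and 0.56, 318 and 2.36 FPKM in WT. Its share of the summed sarcomeric actins was 41.7% in WT replicate 2 and between 10.4% and 20.6% in the other 5. Outside WT replicate 2 the troponin and actin shares rest on sums of 0.77 to 18.3 FPKM.

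Genes of the Z disc, of titin and of the filament linkers were lower in level. Des, the intermediate filament protein desmin, which smooth muscle also makes, read 3.92, 1.03 and 1.62 FPKM in A2ARKO libraries and 0.49, 89.6 and 1.44 FPKM in WT libraries. Actn3, the alpha-actinin of fast fibres, read 2.65, 0.93 and 1 FPKM in A2ARKO and 0.61, 39.9 and 2.17 FPKM in WT. Both were highest in WT replicate 2 and next in A2ARKO replicate 1. Actn2, Mybpc1, Tcap, Myot, Xirp1, Myoz1 and Ttn read between 1.61 FPKM (Ttn) and 50.3 FPKM (Actn2) in WT replicate 2 and below 1 FPKM in every other library. Myot, the Z-disc protein myotilin, read 0.64, 0.54 and 0.75 FPKM in A2ARKO and 0.28, 8.01 and 0.20 FPKM in WT. The A2ARKO values of Myot thus lay above those of WT replicates 1 and 3. Tnni2 did likewise, at 1.39, 0.82 and 0.84 FPKM in A2ARKO against 0.50 and 0.81 FPKM in WT replicates 1 and 3. The share of all genes that separate in this way was not counted. Mybpc2, the fast myosin-binding protein C, stayed between 0.01 and 0.16 FPKM.

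Calcium-handling genes were also highest in WT replicate 2. Atp2a1, the calcium pump of fast fibres, read 2.51, 0.52 and 1.17 FPKM in A2ARKO libraries and 1.02, 89.3 and 0.70 FPKM in WT libraries. Casq1, the calcium-storing calsequestrin of skeletal fibres, read 1.48, 0.63 and 1.26 FPKM in A2ARKO and 0.87, 65.7 and 1.09 FPKM in WT. For both, the A2ARKO values overlapped WT replicates 1 and 3. Casq2, the acetylcholine receptor subunit gene Chrna1, the voltage sensor gene Cacna1s and the release channel gene Ryr1 read 51.4, 40.1, 9.09 and 3.20 FPKM in WT replicate 2. In the other libraries these 4 genes read at most 1.21 FPKM. Of the receptor subunits off the list, the fetal Chrng read 18.7 FPKM and the adult Chrne 0.15 FPKM in WT replicate 2, against at most 0.39 and 0.01 FPKM elsewhere.

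Cav3, the caveolin of muscle membranes, stood apart from that pattern. It read 2.95, 3.06 and 2.52 FPKM in A2ARKO libraries and 4.86, 28.4 and 1.63 FPKM in WT libraries. Its level in the other 5 libraries was 5.74% to 17.1% of that in WT replicate 2, and WT replicate 1, not A2ARKO replicate 1, was second. The A2ARKO values lay between those of WT replicates 3 and 1.

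Of the energy-supply genes, Mb for the oxygen store myoglobin read 2.20, 0.43 and 0.82 FPKM in A2ARKO libraries and 0.83, 63.6 and 1.47 FPKM in WT libraries. Eno3, the muscle enolase of glycolysis (chromosome 11, 70657202 to 70662513, plus strand), read 6.56, 4.54 and 4.8 FPKM in A2ARKO and 14.3, 72.0 and 8.20 FPKM in WT. Every A2ARKO value of Eno3 lay below every WT value, where 14.9% of all tested genes do so. Pygm, muscle glycogen phosphorylase, and Ckm, muscle creatine kinase, read 19.2 and 5.68 FPKM in WT replicate 2 and at most 0.71 and 0.33 FPKM elsewhere.

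Most members stood in a similar ratio between libraries. Over the 39 genes with at least 1 FPKM in WT replicate 2, the median level as a percentage of that library was 3.44%, 1.02% and 1.63% in A2ARKO libraries and 1.14% and 1.61% in WT replicates 1 and 3. Over all 44, the interquartile range ran between 2.26% and 5.95% in A2ARKO replicate 1, between 0.611% and 1.61% in A2ARKO replicate 2 and between 1.21% and 2.5% in A2ARKO replicate 3. In WT replicates 1 and 3 it ran between 0.69% and 1.79% and between 1.36% and 3.16%. With WT replicate 2 set aside, A2ARKO replicate 1 was highest for 35 of the 44 genes, WT replicate 1 for 4, A2ARKO replicate 3 for 3 and WT replicate 3 for 2. A2ARKO replicate 2 was lowest for 22 genes and WT replicate 1 for 17. The order of the litters thus did not follow genotype.

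**Figure D3:**
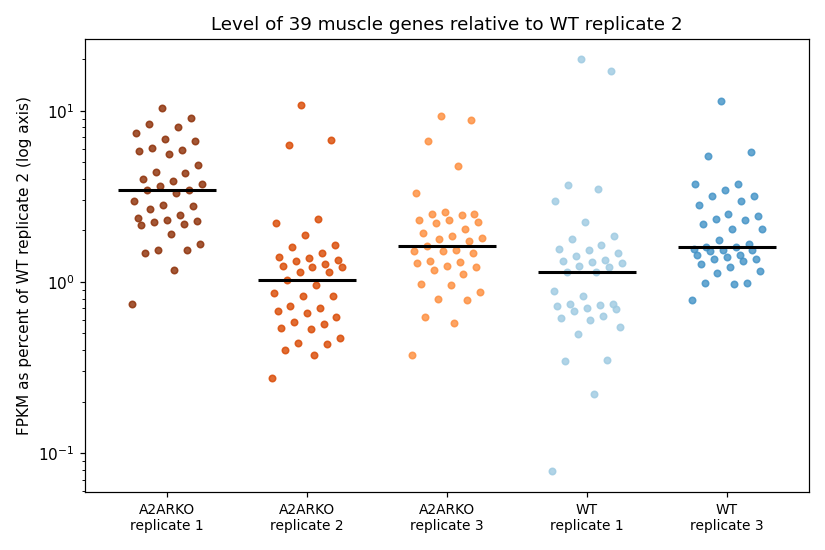
Level of the 39 muscle genes with at least 1 FPKM in WT replicate 2, as a percentage of that library on a log axis, 1 point per gene and a line at the median. The medians lie between 1.02% and 3.44%, highest in A2ARKO replicate 1.

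The comparison of A2ARKO with WT litters was made with limma on log2(FPKM + 1), on genes at 1 FPKM or more in at least 3 libraries, and fold changes on this scale understate the change of low genes. Of the 44 genes 16 passed this filter, among 11595 in all: Myh3, Myl1, Myl4, Mylpf, Acta1, Tnni1, Tnnt3, Tnnc1, Tnnc2, Actn3, Des, Atp2a1, Casq1, Cav3, Mb and Eno3. At an adjusted p below 0.05, 0 of the 16 were called higher and 0 lower, where 3.31% of all tested genes were called higher and 1.77% lower. After rescaling to the same FPKM sum the calls over all genes were 178 higher and 170 lower in place of 384 and 205, and 0 of the 16. Their log2 fold changes lay between -2.0 (Myh3) and -1.0 (Cav3) with standard errors of 0.74 to 1.86, and adjusted p between 0.202 and 0.679. Their median was -1.71, where that of all tested genes was 0.002. Only Eno3 had an unadjusted limma p below 0.05, with a log2 fold change of -1.80, a standard error of 0.74 and an adjusted p of 0.202.

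Without WT replicate 2 the shared negative sign was gone. The median log2 fold change of the 16 genes was then 0.13, with 13 above 0 and 3 below, and limma called 0 of them, where 1.74% of all genes were called higher and 0.845% lower. Mylpf had a log2 fold change of -1.99 (standard error 1.86) with all libraries and 0.27 (0.46) without WT replicate 2. Acta1 had -1.51 (1.67) and 0.48 (0.51), and Des had -1.22 (1.54) and 0.64 (0.44). Eno3 kept its sign, at -1.80 (0.74) with all libraries and -0.93 (0.26) without WT replicate 2, with limma adjusted p of 0.202 and 0.128. The summed FPKM of the 44 genes averaged 54.2 ± 27.1 in A2ARKO and 982 ± 1616 in WT (SD, n = 3 each), a ratio of 0.0552 that was 1.10 without WT replicate 2.

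**Figure D4:**
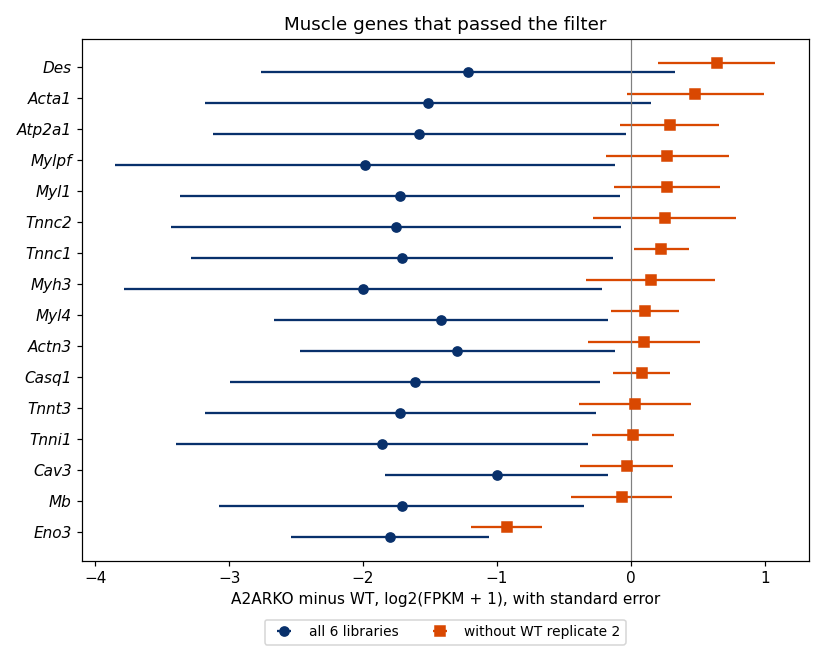
Log2 fold change of A2ARKO over WT with its standard error for the 16 muscle genes that passed the filter, with all 6 libraries (circles) and without WT replicate 2 (squares). All circles lie between -2.0 and -1.0 and the squares between -0.07 and 0.64, except Eno3 at -0.93.

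Over the groups as labelled, A2ARKO lay below WT without overlap for Eno3 alone among the 16 genes tested, and above it for 0, where 14.9% and 18% of all tested genes do so. Among all 44 genes, A2ARKO lay below WT without overlap for Eno3, Myh2 and Myh7 and above it for 0, where 10.2% and 10.9% of the 26442 genes above 0 in a library do so. In a limma fit over these 26442 genes, with no filter, 0 of the 44 genes were called, where 0.541% of all were called higher and 0.265% lower. Myh2 and Myl2 had an unadjusted p below 0.05. The log2 fold change of Myh2 was -0.39 (standard error 0.084) on the log2(FPKM + 1) scale, with a limma adjusted p of 0.112. Without WT replicate 2 the fit without a filter called 0 genes of the list higher and Myh2 lower (log2 fold change -0.30, adjusted p = 0.0425), where 0.267% of all were called higher and 0.193% lower. With a pseudocount of 0.1 in that fit the log2 fold change was -1.58 and the adjusted p 0.0711, so the call rests on that setting and on leaving out the litter.

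Another 110 muscle genes that are not on the list were written down from general knowledge. Earlier results of these data were known then, so they are not an independent check. All 110 had a row, 83 of them were highest in WT replicate 2, and 51 of the 87 with at least 1 FPKM there stood at 5 times the next library or more. Among the members with at least 1 FPKM there, it was 39 of 39. Both counts take genes by their level in that same library. Shares over all genes, also for the 83, were not counted. Sarcoplasmic reticulum and metabolic genes such as Sln, a pump inhibitor, and Pgam2, a glycolytic mutase, read 24.0 and 49.98 FPKM in WT replicate 2 and at most 0.26 and 1.71 FPKM elsewhere. Not every gene of these lists stood out there. The tropomyosin gene Tpm1, which many cell types express, read 124, 99.3 and 69.6 FPKM in A2ARKO libraries and 131, 129.5 and 157 FPKM in WT libraries. The light chain gene Myl6b, by contrast, read 7.73, 8.05 and 7.02 FPKM in A2ARKO and 10.2, 42.5 and 9.22 FPKM in WT, which is 4.15 times the next library in WT replicate 2. Of the 110, 39 passed the filter, and limma called 1 higher and 0 lower, where 3.31% and 1.77% of all tested genes were called, so the count is near that background. The gene called was Met, the hepatocyte growth factor receptor, at 5.39 ± 0.0436 FPKM in A2ARKO and 2.47 ± 0.497 FPKM in WT (SD, n = 3), with a log2 fold change of 0.89 (adjusted p = 0.0181). Without WT replicate 2, Met had a log2 fold change of 0.83 (adjusted p = 0.0457) and Eya4, a transcription cofactor, was called lower at -1.06 (adjusted p = 0.0153), 1 call in each direction where 1.74% of all tested genes were called higher and 0.845% lower.

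WT replicate 2 was also the highest library for macrophage and leukocyte markers. All 11 of them were highest there, and 10 stood at 5 times the next library or more, where the shares of all genes were not counted. Their summed FPKM was 50.5, 29.7 and 25.8 in A2ARKO libraries and 179, 1886 and 129.7 in WT libraries. The lysozyme gene Lyz2 read 31.0, 15.5 and 11.6 FPKM in A2ARKO and 128, 1434 and 104 FPKM in WT, and the complement gene C1qa was listed at 0 in A2ARKO replicate 3. Over these markers the median level as a percentage of WT replicate 2 was 2.86%, 1.08% and 0.714% in A2ARKO and 11.95% and 7.25% in WT replicates 1 and 3, an order that the muscle genes do not share. With all libraries limma called 0 of the 9 tested, with a median log2 fold change of -2.83. Without WT replicate 2 the median was -1.79, with Lyz2 at -2.63 (adjusted p = 0.0517) and C1qb at -2.55 (adjusted p = 0.0597). In that fit limma called 1 of the 9 higher, Cd14, a receptor for bacterial lipopolysaccharide, which lay opposite to the list's median (log2 fold change 0.85, adjusted p = 0.0341), and 0 lower, where 1.74% of all tested genes were called higher and 0.845% lower. The part of these cells in the results on muscle genes was not tested.

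Of the 11 smooth muscle and contractile fibroblast markers, 1 was highest in WT replicate 2, and 0 stood at 5 times the next library there. Of the 10 heart markers, only Tnnt2 and Sln reached 1 FPKM and 5 times the next library in WT replicate 2. These, which developing skeletal muscle also expresses, read 17.4 and 24.0 FPKM there. The heart markers summed to 1.5, 0.97 and 1.3 FPKM in A2ARKO libraries and 0.56, 42.1 and 1.16 FPKM in WT libraries. Myh6, Mybpc3, Nppa, Nkx2-5, Myl7 and Ryr2 read at most 0.10 FPKM in any library. Tnni3 and Nppb read at most 0.71 and 0.66 FPKM. Smooth muscle and contractile fibroblast markers had summed FPKM of 2058, 1150 and 592 in A2ARKO libraries and 556, 562 and 1419 in WT libraries, highest in A2ARKO replicate 1, which was also second for most skeletal muscle genes. Acta2, with the highest mean of these markers, read 1147, 657 and 330 FPKM in A2ARKO and 378, 307 and 831 FPKM in WT. Cnn1, with the largest log2 fold change among those tested, read 56.5, 26.2 and 9.65 FPKM in A2ARKO and 3.11, 3.36 and 24.7 FPKM in WT. Smtn was instead highest in WT replicate 1, at 44.6 FPKM. Synpo2 was highest in WT replicate 2, at 1.70 FPKM, or 2.66 times the next library. Cartilage markers summed to 2419, 4901 and 6925 FPKM in A2ARKO and 27789, 1404 and 503 FPKM in WT, so WT replicate 2 was second lowest for cartilage transcripts while WT replicate 3, lower still, had muscle genes near the level of the A2ARKO litters. Fibroblast markers differed less, at 4791, 3414 and 3781 FPKM in A2ARKO and 9332, 7438 and 6427 FPKM in WT. Of the 8 fibroblast markers, limma called Twist1 lower, with a log2 fold change of -0.64 (adjusted p = 0.0457). Of the 16 cartilage, 9 smooth muscle and 9 leukocyte markers tested, 0 were called. Over all tested genes 3.31% were called higher and 1.77% lower, so lists of this size hold few calls at that background. The 7 endothelial markers summed to 2, 1.62 and 1.84 FPKM in A2ARKO libraries and 1.26, 3.88 and 3.83 FPKM in WT libraries. Most of it came from the receptor gene Tek, which read 0.83 to 3.42 FPKM, while Pecam1 read at most 0.18 FPKM. Of these 7 markers, 6 were highest in WT replicate 2, but only 1 reached 1 FPKM there. None of the 7 both reached 1 FPKM there and stood at 5 times the next library. The 5 red blood cell markers summed to at most 0.13 FPKM, and the fat markers Fabp4 and Adipoq were highest in A2ARKO replicate 1, at 56.0 and 31.2 FPKM.

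**Figure D5:**
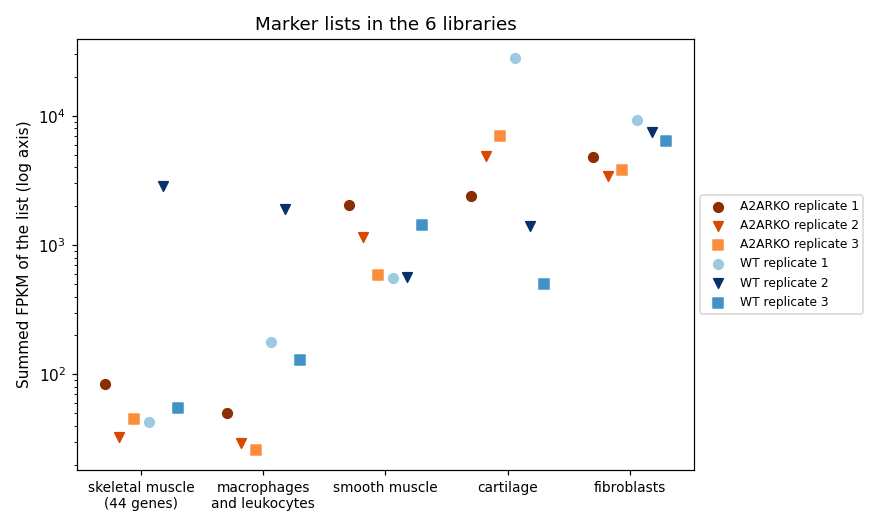
Summed FPKM of 5 marker lists on a log axis, with 1 point per library. WT replicate 2 is the highest point for skeletal muscle (2847) and for macrophages and leukocytes (1886) but not for smooth muscle, cartilage or fibroblasts.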

How the data were processed

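The authors deposited FPKM for 6 libraries, rounded to 2 decimals, and all 6 columns were used, each assigned by its title. HTSeq and the build mm10 are named per the submitters' processing notes; no source used here gives the aligner, annotation, versions or strand setting. The table holds no counts, and 0.01 FPKM is its smallest step. Depth was estimated from genes of at most 150 bases, with exon lengths of GENCODE release M21 (GRCm38). The depth taken was that at which FPKM times exon length most often gave whole reads. At that depth 99.6% of values or more lay within 0.1 read, a share that is no check since it set the depth. Reads summed over genes with the same lengths exceeded the depth in every library, most in WT replicate 1 (59.2 M against 41.6 M). Reads per gene are approximate, and intervals were not derived from them. No pair of litters of a genotype agreed within sampling noise.

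A2ARKO and WT were compared in R 4.3.3 with limma 3.58.1 (lmFit, eBayes with trend) on log2(FPKM + 1), two-sided, with Benjamini-Hochberg adjustment over the 11595 genes at 1 FPKM or more in at least 3 libraries, and a threshold of 0.05. The fit was tested on simulated data with a pooled spread taken from the A2ARKO litters alone. It was not tested on litters that differ as widely as the WT litters do. Members, lists and tests were chosen with earlier results of these data known. Named were genes passing the filter, called genes, the myogenic factors and the highest values; other genes, such as Mymk and Chrng, were named after their values were seen. Alternatives were another pseudocount, no filter, rescaling, quantile normalization, no trend, each library left out and a replicate block.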

Additional observations from a re-analysis of the deposited data

How the results depend on the processing

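The 16 muscle genes tested kept their negative sign and were not called under a pseudocount of 0.1, no filter, rescaling, quantile normalization, no trend and the replicate block, and without any library other than WT replicate 2. Without WT replicate 2, 13 of the 16 turned positive. With each library left out in turn, the log2 fold change ran for Myh3 from -3.41 to 0.15, for Myl1 from -2.80 to 0.27, for Myl4 from -2.27 to 0.10, for Mylpf from -3.30 to 0.27, for Acta1 from -2.77 to 0.48, for Tnni1 from -2.97 to 0.014, for Tnnt3 from -2.85 to 0.029, for Tnnc1 from -2.76 to 0.23, for Tnnc2 from -2.93 to 0.25, for Actn3 from -2.24 to 0.096, for Des from -2.32 to 0.64, for Atp2a1 from -2.58 to 0.29, for Casq1 from -2.5 to 0.081; that of Cav3, Mb and Eno3 stayed negative. The list's median ran from -2.70 to 0.13, the ratio of the summed FPKM from 0.0373 to 1.10, and muscle genes called numbered 0 in each of these fits. Genes called over the whole table ran from 39 to 568 higher and from 11 to 362 lower. They numbered 143 higher and 70 lower with no filter, 178 and 170 after rescaling, and 1 and 1 with the replicate block. In fits chosen after seeing the data, all without WT replicate 2, they were 69 higher and 50 lower with no filter, 73 and 45 with a pseudocount of 0.1 as well, and 140 and 105 after rescaling. The fit with no filter called 1 muscle gene, Myh2, lower (log2 fold change -0.30); that with a pseudocount of 0.1 called 0. Adora2a kept its sign: -2.25 with an adjusted p of 0.0533 with no filter and 0.121 with the replicate block, and between -2.60 and -1.99 with each library left out. Its call was also lost in 4 of the 6 leave-outs, with limma adjusted p of 0.0824, 0.0955 and 0.0864 without A2ARKO replicates 1, 2 and 3 and 0.0582 without WT replicate 2; it was 0.0235 and 0.00999 without WT replicates 1 and 3. The cause of these moves was not tested. Some of these fits held fewer libraries or a larger number of genes. Same-numbered litters deviated in opposite directions (correlations of -0.52, -0.33 and -0.39 over the tested genes). The deviations hold the large differences between single litters, so they cannot show whether the numbers pair the samples. No label says that they do. The replicate block called 0 muscle genes, as did the fit without it. Low values of short genes rest on few reads, since reads at a given FPKM rise with gene length. Myf6 at 0.08 FPKM in WT replicate 1 corresponds to about 4.2 estimated reads. Ttn at 0.02 FPKM in A2ARKO replicate 2 corresponds to about 136.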

Other observations

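Over all 11595 tested genes, 61 stood in WT replicate 2 at 4 times every other library or more on the FPKM + 1 scale, a list drawn up after the values were seen. Of these, 16 are the muscle genes that passed the filter, 6 are further muscle genes and 8 are macrophage markers. The other 31 include Fcer1g, C5ar1, Marco, Itgam and Pf4, which are known from myeloid cells and platelets, Nes, the intermediate filament gene of muscle and neural precursors, and Murc, a caveolar gene of muscle. By the same measure 27 genes stood apart in WT replicate 1, of which 6 are cartilage markers and 0 are muscle genes. In each of the other 4 libraries 0 genes did.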
